A study of Saccharomyces cerevisiae with 2 samples.

Results

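Haem is the iron-containing ring that cytochromes, catalases and several oxygen-using enzymes carry. Budding yeast builds it from glycine and succinyl-CoA. The pathway starts in the mitochondrion, passes through the cytosol and returns to the mitochondrion, where iron is inserted. The enzymes encoded by HEM13 and HEM14 use molecular oxygen in aerobic cells, and so does haem oxygenase, encoded by HMX1, which breaks the ring open and frees the iron. In Saccharomyces cerevisiae HEM13 is a classical target of Rox1, a repressor made when haem and oxygen are present, and HMX1 belongs to the genes that Aft1 switches on when iron is short.

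The 9 genes described here are the 8 genes of haem synthesis (HEM1, HEM2, HEM3, HEM4, HEM12, HEM13, HEM14 and HEM15) and HMX1, chosen by symbol from the 5734 genes of the longer series table. Messenger RNA was compared between the mutant strain Y518, which the series title describes as rich in glutathione, and the wild-type strain 2-10515. Both strains grew for 18 h as a seed culture at 30 °C and 180 rpm and then for 24 h as a fermentation under the same conditions. The labels do not name the mutation in Y518, and nothing in them says how closely the strains are related. There was 1 library per strain, so no difference below has a replicate check, and no p-value is given. The differences compare these libraries, and fewer cells with a transcript cannot be told apart from less transcript per cell.

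The Y518 library held 4.32 M uniquely mapped reads and the wild-type library 4.71 M, with a median of 262 and 234 reads per gene. Levels are given as RPKM, reads per kilobase of coding length and per 1e+06 reads, with an exact Poisson 95% interval. Folds are ratios of reads per library total with an exact conditional binomial (Clopper-Pearson) 95% interval. Both intervals cover counting error only, not the spread between cultures. A gene was called when its log2 ratio of (RPKM + 1), Y518 over wild type, was at least 1 in size. Of the 5415 genes whose mean over both libraries reached 5 RPKM, 19.9% were called higher in Y518 and 8.88% lower, and their median log2 ratio was 0.27. That offset followed the scaling. Of the called genes, 69.1% were higher in Y518 as deposited, 49.2% once the median was set to 0, 50.6% with TMM factors and 49.4% with DESeq2 size factors.

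Within the pathway the libraries differed by 2-fold or more at a few steps. HMX1 was higher in Y518, HEM13 and HEM2 were lower, and the other 6 genes were within 2-fold. This makes 1 of 9 higher, against a background of 19.9%, and 2 of 9 lower, against 8.88%. The median log2 ratio of the 9 genes was -0.11, which is 0.38 below the median of all genes. The 8 synthesis genes summed to 602 RPKM in Y518 and 958 RPKM in the wild type, while HMX1 alone had 685 RPKM in Y518 and 180.3 RPKM in the wild type. All 9 genes passed the minimum in both libraries, the lowest levels being 22.6 RPKM in Y518 and 22.4 RPKM in the wild type, both of HEM14 by its listed length.

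**Figure D1:**
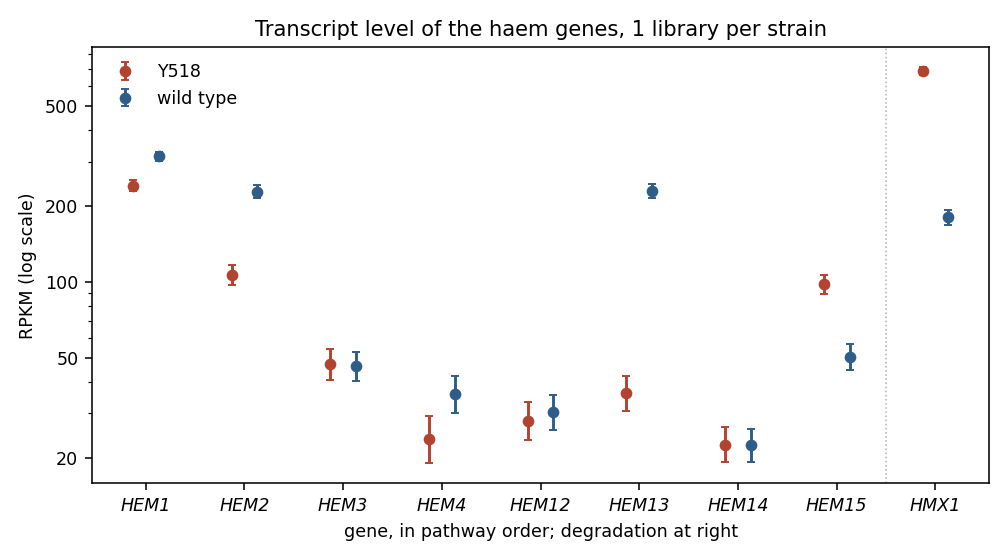
Transcript level (RPKM, log scale) of each haem gene in pathway order, Y518 left in red and wild type right in blue, with exact Poisson 95% intervals and 1 library per strain. HEM13 has 36.1 RPKM in Y518 and 229 in the wild type, and HMX1 has 685 RPKM in Y518 and 180.3 in the wild type, while the points of HEM3, HEM12 and HEM14 lie close together.

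HEM1 (YDR232W, chromosome IV) encodes 5-aminolevulinate synthase, which joins glycine to succinyl-CoA in the mitochondrion and commits carbon to the pathway. It had 1711 reads in Y518 and 2444 reads in the wild type, or 241 RPKM (229 to 252) in Y518 and 315 RPKM (303 to 328) in the wild type. The gene was 1.31-fold lower in Y518 (1.23 to 1.39), beyond counting error but within 2-fold. It was the most abundant synthesis transcript in both libraries. Reads covered 99.82% of its length in Y518 and 99.7% in the wild type.

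HEM2 (YGL040C, chromosome VII) encodes porphobilinogen synthase, the next enzyme, in the cytosol. It had 471 reads in Y518 and 1105 reads in the wild type, or 106 RPKM (96.7 to 116) in Y518 and 228 RPKM (215 to 242) in the wild type. HEM2 was 2.15-fold lower in Y518 (1.93 to 2.40), with a log2 ratio of -1.1. Its counting interval reached below 2-fold, so the call lies close to the threshold. On chromosome VII as a whole the median log2 ratio was 0.05, and 11.4% of its genes were called lower.

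With the deposited totals HEM3 and HEM12, in the middle of the pathway, did not differ between the libraries beyond counting error. HEM4, between them, did. HEM3 (YDL205C, chromosome IV) encodes porphobilinogen deaminase, which links porphobilinogen units into a chain, and had 200 reads in Y518 and 214 reads in the wild type. Its level was 47.1 RPKM (40.8 to 54.1) in Y518 and 46.2 RPKM (40.2 to 52.8) in the wild type. HEM12 (YDR047W, chromosome IV) encodes uroporphyrinogen decarboxylase and had 132 reads in Y518 and 156 reads in the wild type, or 28.1 RPKM (23.5 to 33.3) in Y518 and 30.4 RPKM (25.8 to 35.6) in the wild type.

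For both genes the interval of the fold held 1: the ratio, Y518 over wild type, was 1.02 for HEM3 (0.836 to 1.24) and 0.923 for HEM12 (0.726 to 1.17). HEM4 (YOR278W, chromosome XV) encodes uroporphyrinogen III synthase, which closes the ring. It had 85 reads in Y518 and 140 reads in the wild type, or 23.8 RPKM (19.0 to 29.4) in Y518 and 35.9 RPKM (30.2 to 42.4) in the wild type. HEM4 was 1.51-fold lower in Y518 (1.15 to 2.00), beyond counting error but within 2-fold.

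The oxygen-using steps of synthesis did not move together. HEM13 (YDR044W, chromosome IV) encodes coproporphyrinogen III oxidase, which needs molecular oxygen. It had 154 reads in Y518 and 1066 reads in the wild type, or 36.1 RPKM (30.7 to 42.3) in Y518 and 229 RPKM (216 to 244) in the wild type. HEM13 was 6.35-fold lower in Y518 (5.36 to 7.56), the largest difference among the 9 genes under every scaling, pseudocount and minimum tried. Its log2 ratio was -2.63, and 53 of the 5415 genes (0.979%) had a lower one. The reads spread over 94.53% of the gene in Y518 and 98.58% in the wild type, so the low count in Y518 did not come with a large uncovered stretch.

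HEM14 (YER014W, chromosome V) encodes protoporphyrinogen oxidase, the next step, in the mitochondrion. It had 158 reads in Y518 and 171 reads in the wild type, or 22.6 RPKM (19.2 to 26.4) in Y518 and 22.4 RPKM (19.2 to 26.0) in the wild type. The ratio of 1.01 had an interval of 0.807 to 1.26. By the listed lengths HEM13 stood 1.60-fold above HEM14 in RPKM within the Y518 library (1.27 to 2.01) and 10.2-fold above it within the wild-type library (8.70 to 12.1). These within-library ratios do not depend on the scaling between libraries. They do depend on the length taken for HEM14, which overlaps another gene: without the overlap they were 1.17 in Y518 (0.928 to 1.47), no longer beyond counting error, and 7.46 in the wild type (6.34 to 8.82).

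HEM15 (YOR176W, chromosome XV) encodes ferrochelatase, the mitochondrial enzyme that inserts iron and completes haem. It had 499 reads in Y518 and 281 reads in the wild type, or 97.8 RPKM (89.4 to 107) in Y518 and 50.5 RPKM (44.8 to 56.8) in the wild type. HEM15 was 1.94-fold higher in Y518 (1.67 to 2.25), and its log2 ratio of 0.94 lay just inside the threshold. It was the synthesis gene with the highest ratio. Relative to the median of all genes its log2 ratio was 0.67.

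HMX1 (YLR205C, chromosome XII) encodes the haem oxygenase of the endoplasmic reticulum. It had 2821 reads in Y518 and 810 reads in the wild type, or 685 RPKM (660 to 711) in Y518 and 180.3 RPKM (168 to 193) in the wild type. HMX1 was 3.80-fold higher in Y518 (3.51 to 4.11), with a log2 ratio of 1.92, and 274 of the 5415 genes had a higher one. Reads covered 98.11% of it in Y518 and 95.18% in the wild type.

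Beside the end of synthesis, HMX1 stood 7.0-fold above HEM15 in RPKM within Y518 (6.37 to 7.72) and 3.57-fold within the wild type (3.11 to 4.11). Beside the start, it stood 2.85-fold above HEM1 within Y518 (2.68 to 3.02), while within the wild type its level was 0.572 of that of HEM1 (0.528 to 0.620). The order of HMX1 and HEM1 was thus reversed between the libraries, whereas HMX1 stood above HEM15 in both.

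**Figure D2:**
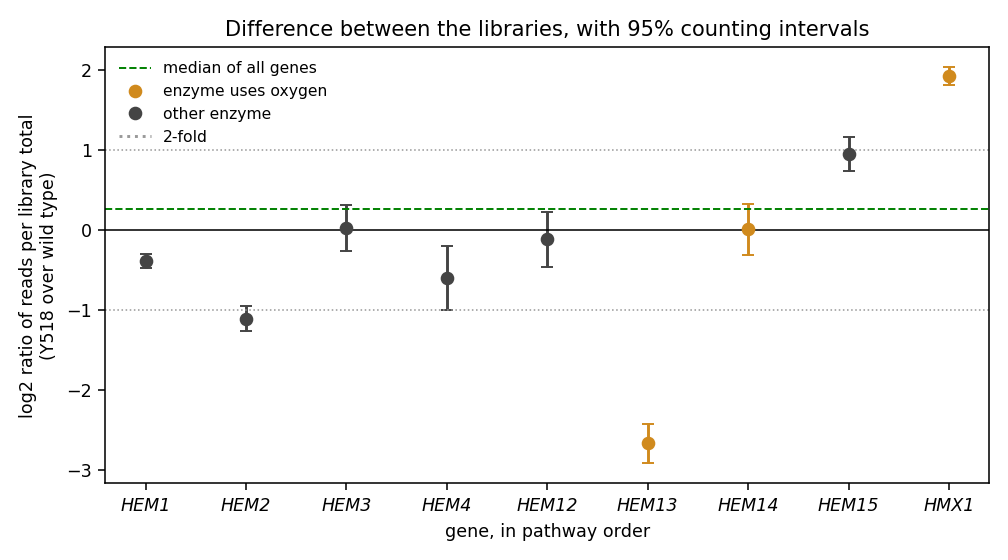
Log2 ratio of reads per library total, Y518 over wild type, for each haem gene in pathway order with the 95% counting interval; genes whose enzyme uses oxygen are orange, the dashed line is the median of all genes and the dotted lines mark 2-fold. HEM13 lies lowest and HMX1 highest, HEM2 is just below the lower dotted line and HEM15 just inside the upper one.

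The make-up of the set shifted accordingly. HMX1 took 53.2% of the summed RPKM of the 9 genes in Y518 and 15.8% in the wild type. HEM13 took 2.81% in Y518 and 20.2% in the wild type, and HEM2 took 8.24% in Y518 and 20.03% in the wild type. HEM1 took 18.7% in Y518 and 27.7% in the wild type, whereas HEM15 took 7.6% in Y518 and 4.44% in the wild type. The other 4 genes each took less than HEM15 in both libraries, from 1.76% for HEM14 to 3.66% for HEM3 in Y518 and from 1.97% for HEM14 to 4.06% for HEM3 in the wild type.

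In Y518 the order of levels ran from HMX1 to HEM1, HEM2, HEM15, HEM3, HEM13, HEM12, HEM4 and HEM14 by the listed lengths. HEM2 and HEM15 did not differ beyond counting error there (ratio 1.08, 0.954 to 1.23), nor did HEM12 and HEM4, or HEM4 and HEM14. In the wild type it ran from HEM1 to HEM13, HEM2, HMX1, HEM15, HEM3, HEM4, HEM12 and HEM14. There HEM13 and HEM2 were level with each other (ratio 1.01, 0.924 to 1.1), and neither HEM15 and HEM3 nor HEM4 and HEM12 differed beyond counting error. Among all genes, HEM13 lay above 38.0% in Y518 and above 87.9% in the wild type, and HMX1 above 95.6% in Y518 and above 84.1% in the wild type.

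**Figure D3:**
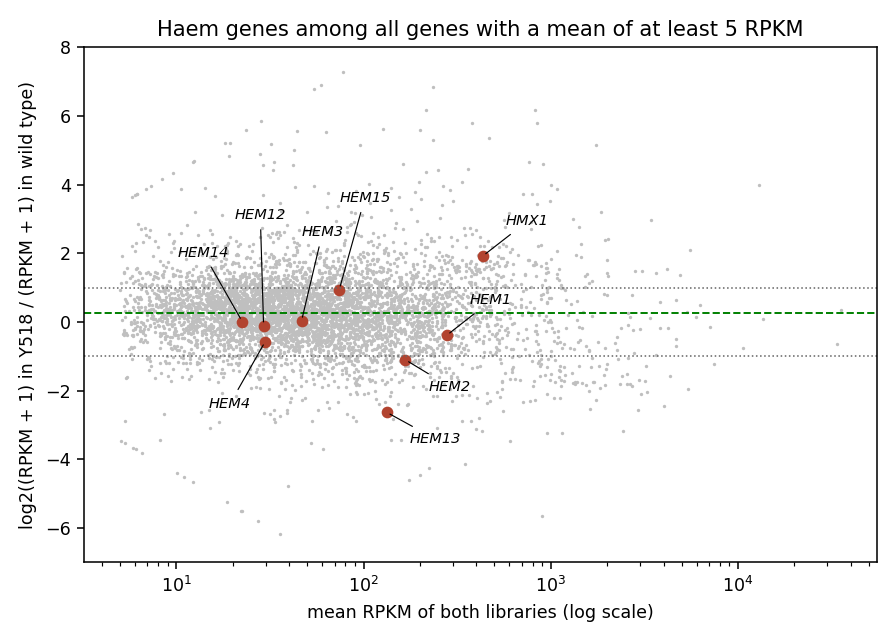
Log2 ratio of (RPKM + 1), Y518 over wild type, against mean RPKM (log scale) for all genes whose mean reached 5 RPKM (grey) and the 9 haem genes (red); the dashed line is the median of all genes, the dotted lines mark 2-fold, and 4 genes lie below the plotted range. Most haem genes sit within the grey band, with HEM13 below it and HMX1 at its upper side.

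HEM14 differed from the other members in how its reads were spread. Reads covered 76.91% of its length in Y518 and 76.11% in the wild type, whereas the other 8 genes were covered over at least 94.21% in Y518 and 95.18% in the wild type. Genes with a read density within 1.25-fold of that of HEM14 had a median coverage of 94.3% in Y518 (708 genes) and 94.6% in the wild type (756 genes). Only 2.68% of them in Y518 and 1.46% in the wild type were covered less than HEM14.

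In the R64 reference annotation, 439 bases of the HEM14 coding sequence (27.1%) also belong to the coding sequence of BUD25 on the opposite strand, and BUD25 had 0 rows in the table. The uncovered share of HEM14 was 23.1% in Y518 and 23.9% in the wild type. Among the genes of like read density, those with 20 to 35% of their coding sequence shared with another gene numbered 3 in Y518, covered over 54.6 to 81.5%, and 1 in the wild type, covered over 81.2%. The part of the overlap in the low coverage was not tested.

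If the reads of HEM14 all came from the 1181 bases outside the overlap, its level would be 31.0 RPKM in Y518 and 30.8 RPKM in the wild type. HEM14 would then no longer be the lowest gene in Y518, with HEM12 at 0.906 of its level there (0.714 to 1.15) and HEM4 at 0.767 (0.582 to 1.01), neither difference being beyond counting error. In the wild type HEM12 would be level with it (ratio 0.989, 0.791 to 1.24). The ratio of HEM14 between the libraries does not depend on the length used. None of the other 8 genes overlaps another annotated gene or has a near-identical copy.

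**Figure D4:**
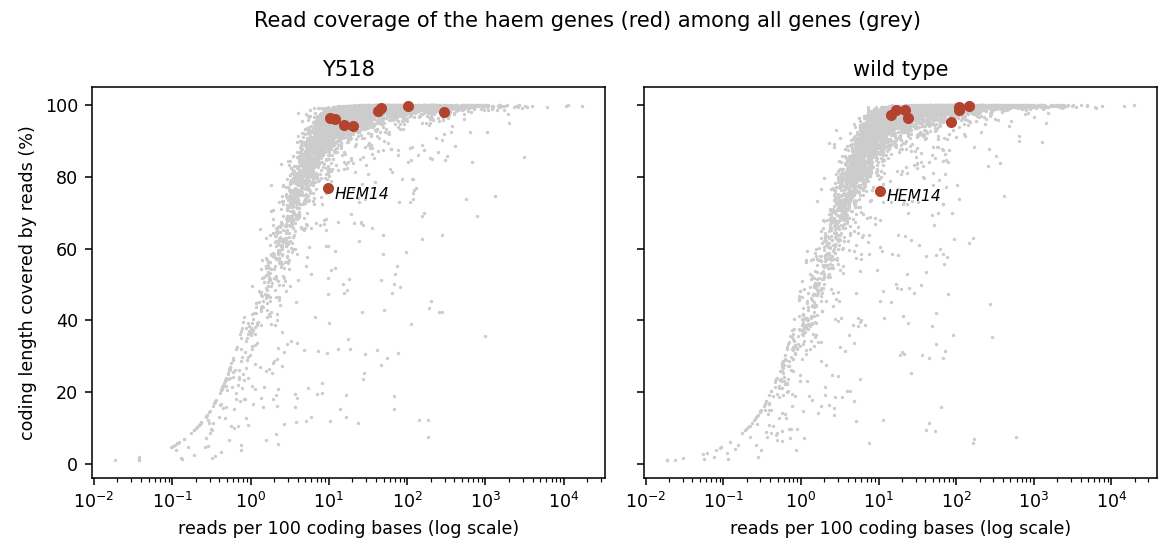
Percent of the coding length covered by reads against reads per 100 coding bases (log scale), Y518 left and wild type right, with the haem genes in red and all genes with reads in grey. HEM14, at 76.91% in Y518 and 76.11% in the wild type, lies below the other haem genes and below most genes of the same read density.

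The surroundings of the genes in the genome were compared next. HEM13, HEM1, HEM3 and HEM12 all lie on chromosome IV, where the median log2 ratio was 0.28 and 5.99% of genes were called lower. HEM12 lies a few genes from HEM13 and had a log2 ratio of -0.11 against -2.63 for HEM13. Of the listed genes beside HEM13, NRG1 had 429 reads in Y518 and 714 reads in the wild type, and RPC11 had 18 reads in Y518 and 4 reads in the wild type. Beside HMX1, QRI5 had a log2 ratio of -0.37 and ENT2 one of 0.50, and the median of chromosome XII was 0.37. Over the 31 measured genes within 2 places of a haem gene, 6 (19.4%) were called higher and 3 (9.68%) lower, near the 19.9% and 8.88% of all genes, with a median of -0.03.

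Genes for enzymes that make or use the substrates of the HEM1 enzyme were mostly lower in Y518. Of 9 genes around succinyl-CoA and glycine, 6 were called lower and 0 higher, beside 8.88% lower and 19.9% higher over all genes, with a median log2 ratio of -1.34. The 6 include LSC1 and LSC2, for succinyl-CoA ligase, which also uses succinyl-CoA, so this is not a count of supplying enzymes alone. Nor was the difference particular to this list. Of other citrate cycle genes, ACO1 (log2 ratio -1.56), SDH1 (-2.27) and FUM1 (-1.83) were also lower. IDH1 (-0.97) was within 2-fold, and the citrate synthase gene CIT2 (1.19) was higher. AGX1, which makes glycine from glyoxylate, had 479 RPKM in Y518 and 2778 RPKM in the wild type. GLY1, which makes glycine from threonine, had 124 RPKM in Y518 and 380 RPKM in the wild type. KGD2 and LPD1, subunits of the enzyme that forms succinyl-CoA, were 2.70-fold (2.6 to 2.81) and 2.96-fold (2.84 to 3.09) lower, while KGD1, for another subunit of that enzyme, was 1.5-fold lower and not called. KGD1 lies on chromosome IX, where the median log2 ratio was 1.01 and 51.0% of genes were called higher. Whether its place there bears on its smaller difference was not tested.

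Genes that carry substrates, branch from the pathway or attach haem had called members in both directions. Of 15, 26.7% (4 genes) were higher and 13.3% (2 genes) lower, near the 19.9% and 8.88% of all genes, and the median log2 ratio was -0.09. PUG1, a plasma membrane transporter linked to porphyrins, had 109 reads in Y518 and 4 reads in the wild type, a 29.7-fold excess (11.3 to 111), and passed the minimum through its level in Y518. CYC3, which attaches haem to cytochrome c, was 2.24-fold higher (2.02 to 2.48). MET1, which starts the sirohaem branch from uroporphyrinogen III, was 2.23-fold higher (1.77 to 2.83), and MRS4, a mitochondrial iron carrier, was also called. After centring on all genes PUG1 alone of these was still past 2-fold.

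The lower genes of that list were YAH1, the mitochondrial ferredoxin that also serves haem A synthesis, and YFH1, the frataxin that aids iron delivery. YAH1 was 4.22-fold lower on 78 reads in Y518 and 359 reads in the wild type, and YFH1 was 2.25-fold lower on 253 reads in Y518 and 621 reads in the wild type. HEM25 (YDL119C), the mitochondrial glycine carrier, had 47 reads in Y518 and 59 reads in the wild type, and the interval of its ratio ran from 0.579 to 1.30. MCX1, which activates the HEM1 enzyme, had a ratio of 1.04 (0.816 to 1.32).

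In a chosen list of proteins that carry haem or a haem-binding domain, 7 of 13 measured genes (53.8%) were called higher and 0 lower. The shares over all genes were 19.9% and 8.88%, and the median log2 ratio of the list was 1.06. The list is not complete. It leaves out SDH3 and SDH4, for the haem-holding membrane subunits of succinate dehydrogenase. SDH3 had 847 RPKM in Y518 and 5007 RPKM in the wild type, and SDH4 had 638 RPKM in Y518 and 2553 RPKM in the wild type. CYC7, the hypoxic cytochrome c, had 120 reads in Y518 and 4 reads in the wild type, and it too passed the minimum through its level in Y518. CTT1, the cytosolic catalase, had 1062 RPKM in Y518 and 276 RPKM in the wild type. CYC1 and CYT1, which serve respiration, were not called and had ratios of 0.729 and 0.568. After centring, 2 genes of the list, CYT1 and the flavohaemoglobin gene YHB1, were lower by at least 2-fold, beside 13.6% of all genes.

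**Figure D5:**
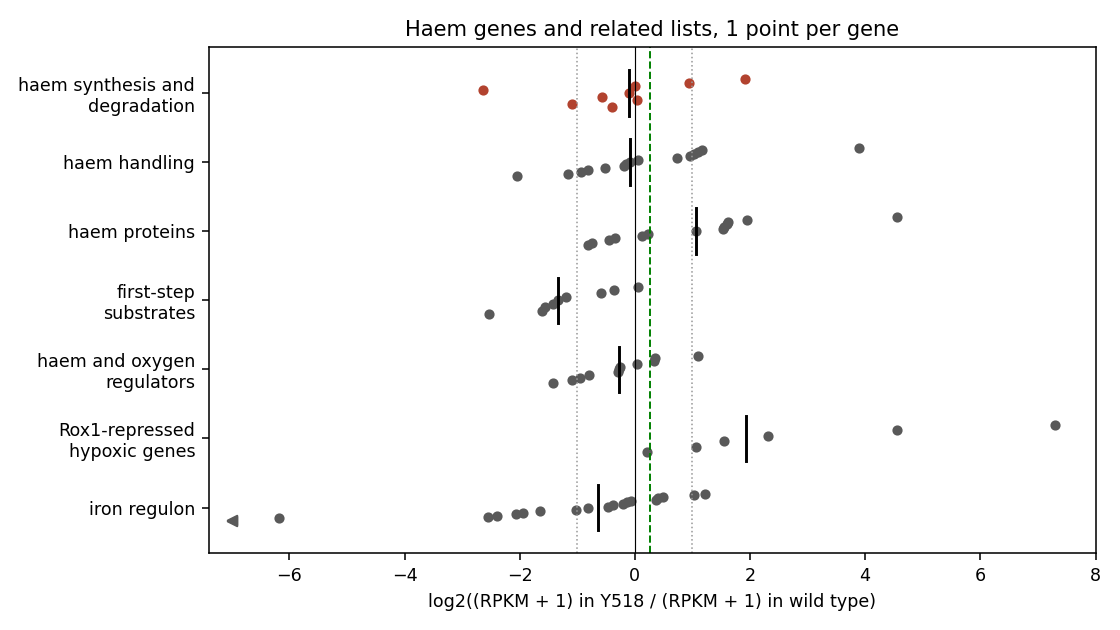
Log2 ratio of (RPKM + 1), Y518 over wild type, for the haem genes (red) and the measured genes of 6 related lists (grey), 1 point per gene, with a black bar at each median; the dashed line is the median of all genes, the dotted lines mark 2-fold and arrowheads at the left edge stand for FIT3 and FIT2, which lie beyond it. HEM13 lies at -2.63, whereas the measured genes of the hypoxic list, which does not hold every target of Rox1, lie between 0.21 and 7.29.

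HEM13 was lower in Y518, whereas the measured genes of a chosen list of other Rox1 targets were called higher or within 2-fold. Of these 6 hypoxic genes, 5 were called higher in Y518 and 0 lower, beside 19.9% and 8.88% of all genes. The list is not complete, and FET4, also known as a target of Rox1, was left off it. FET4 had 261 RPKM in Y518 and 1285 RPKM in the wild type, a log2 ratio of -2.29, so it was lower like HEM13. ERG11, OLE1 and CYC7, all called higher, are also on the list of haem proteins above, so the counts of both lists share them. CYC7 and ANB1 passed the minimum through Y518 alone. Of the 4 listed genes at 5 RPKM or more in both libraries, 3 were higher as deposited and 2 after centring. OLE1, the fatty acid desaturase, had 6225 RPKM in Y518 and 2143 RPKM in the wild type. COX5B, the hypoxic cytochrome oxidase subunit, had 71.6 RPKM in Y518 and 13.5 RPKM in the wild type. It lies on chromosome IX, where the median log2 ratio was 1.01 and 51.0% of genes were called higher. ANB1, the hypoxic form of eIF5A, had 318 reads in Y518 against none (0) in wild-type cells, a level at least 116-fold higher when set against a floor of 3 reads. Only 18.78% of it was covered in Y518, and it has a close paralogue, so its value is uncertain. HMG2 was within 2-fold, and AAC3, with 1 read in Y518 and 4 reads in the wild type, was below the minimum.

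Of 11 regulators of the haem and oxygen response, 1 was called higher and 2 lower, beside 19.9% and 8.88% of all genes, which at this list size is a difference of 1 or 2 genes. ROX1 itself had 371 RPKM in Y518 and 442 RPKM in the wild type, a ratio of 0.840 (0.789 to 0.894). HAP1, the haem-responsive activator, was 2.16-fold higher (2.00 to 2.32). HAP3, of the Hap2/3/4/5 complex, was 2.72-fold lower (2.05 to 3.66), and CYC8, a corepressor, 2.16-fold lower (1.95 to 2.40). After centring, 0 genes of this list were higher and 4 lower, beside 13.2% and 13.6% of all genes.

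HMX1 was higher in Y518, while other genes of the iron regulon were called lower more often than higher. Of 20 such genes that passed the minimum and respond to iron shortage, 9 (45%) were called lower in Y518 and 2 (10%) higher, beside 8.88% lower and 19.9% higher over all genes, with a median log2 ratio of -0.65, against 1.92 for HMX1. The higher genes were MRS4 and CCC2, a copper-transporting ATPase, and after centring neither was past 2-fold. FRE3, a ferric reductase, was 6.18-fold lower (5.19 to 7.40), with 67.04% of its length covered in Y518. FIT3, FIT2 and FRE5, with 3, 3 and 0 reads in Y518, were the lowest and passed the minimum through the wild type alone, and a lack of transcript there cannot be told apart from a lack of the gene. FRE3, FIT2, FIT3 and FRE5 have consecutive locus names on chromosome XV (YOR381W to YOR384W), so their calls within the 9 may not be independent. FRE2, also called lower, was covered over 57.6% of its length in Y518 and 99.1% in the wild type.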

How the data were processed

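Messenger RNA of 1 Y518 and 1 wild-type library was analysed. Per the file headers, the authors deposited for each gene the read count (unique matches only), the percent of its length under reads, and RPKM. The deposited RPKM equalled the count over length and library total (0 mismatches beyond a relative difference of 1e-06), and the series tables and single-library tables matched in every count (0 mismatches). All 5734 lengths are multiples of 3, so they are coding lengths. The sources used here do not state the aligner, counting tool, strand setting or genome build, so no coordinates or sequences are printed.

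The R64 annotation was joined on RefSeq accessions (5713 matched, 5685 of them with version) and gave current names, chromosomes, neighbours and coding overlaps. All 9 members matched with version and length. Near-identical copies were searched with BLAST+ 2.17.0 (at least 95% identity over at least 100 nt). HEM14 had such a match, to the overlapping BUD25.

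Genes whose mean over the libraries reached 5 RPKM were compared by log2 of (RPKM + 1), Y518 over wild type. The pseudocount of 1 understates changes of low genes. Genes were called at 2-fold, with no test, since each strain has 1 library. Alternatives were pseudocounts of 0.1 and 5 RPKM, no minimum or 20 RPKM, centring on all genes, edgeR 4.0.16 TMM factors, DESeq2 1.42.0 size factors, and totals without the 10 most abundant genes. Calls and intervals were tested on simulated data. The members and lists were chosen with earlier results of these data known. All 9 members are named, and up to 4 called genes of each related list with the largest log2 ratios. Other genes, and the coverage and overlap comparison of HEM14, were chosen after their values were seen. PCR duplicates are not independent molecules, so intervals and the floor of 3 reads cover counting error only.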

Additional observations from a re-analysis of the deposited data

How the results depend on the processing

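The counts of haem genes, 1 higher and 2 lower, were the same under each alternative, and the median log2 ratio of the 9 genes ranged from -0.38 to -0.10. HEM13 ranged from -2.91 to -2.51, HEM2 from -1.37 to -1.07 and HMX1 from 1.64 to 1.92. HEM3 and HEM14, never called, were at 0.03 and 0.01 as deposited and fell below 0 after rescaling, to -0.25 and -0.26 at the lowest. HEM12 was at -0.11 as deposited and reached -0.38 at the lowest, where its counting interval was not computed.

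Centring, TMM and DESeq2 scaling shift all ratios down by construction. With each of them 1 gene of haem handling was higher and 4 lower, 0 regulators were higher and 4 lower, and 0 genes of the iron regulon were higher. The listed haem proteins then had 2 lower genes after centring, 1 with TMM and 1 with DESeq2 size factors. With a pseudocount of 5 RPKM, 2 genes of haem handling and 1 of the iron regulon were higher, and without the 10 most abundant genes 1 of the iron regulon was. Of the listed hypoxic genes at 5 RPKM or more in both libraries, a restriction chosen after seeing the data, 3 were higher. No paired analysis was possible because each strain has 1 library. A difference between cultures cannot be told apart from a difference between strains, and HEM4, at 85 reads in Y518, has the fewest reads of the members.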
